A study of Mus musculus with 2 samples.

Results

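The LEF and TCF transcription factors, their partner beta-catenin and their nearest cofactors were examined in LSK cells, the bone marrow fraction without lineage markers and with Sca-1 and c-Kit that contains the blood stem cells. The 10 genes were Lef1, Tcf7, Tcf7l1, Tcf7l2, Ctnnb1, Jup, Bcl9, Tle1, Tle3 and Tle4, chosen by name, and probes were taken where the gene name in the scanner files equalled one of them. This gave 22 probes of 9 genes, of 41170 probes on each array. Tcf7l1 had no probe under its own name. Its RefSeq accession was carried by 2 probes that the array calls Tcf3, which brought the set to 24 probes of 10 genes. The study compared 1 array of wild-type LSK cells with 1 array of LSK cells labelled PAD4-/-, both from C57BL/6 mice and sorted by flow cytometry. PAD4, encoded by Padi4, turns arginine residues of histones and other proteins into citrulline. The sources used here do not give the Padi4 allele, the age and sex of the mice or whether animals were pooled.

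LEF and TCF proteins bind DNA through an HMG box at Wnt-responsive genes. Without a Wnt signal they recruit TLE corepressors, while beta-catenin is degraded in the cytoplasm by a complex of APC, AXIN, casein kinase and GSK3. With a signal, beta-catenin enters the nucleus, takes the place of TLE and brings in BCL9 and Pygopus as coactivators. In blood, Lef1 and Tcf7 are best known from early T and B cell development, while Tcf7l1 and Tcf7l2 are known from stem cells and from epithelia.

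With 1 array per group, no test between the genotypes was possible and no difference had a replicate check. Levels below are processed signals of the scanner on a linear scale. Differences are PAD4-deficient minus wild-type on the log2 scale after each array was scaled to its 75th percentile, and the error beside each difference is the scanner's own error of the spots, which leaves out the variation between mice. Signals of different probes were not set against each other, since each probe has its own brightness. Measured probes were those well above background in both samples, and a gene took the value of its brightest measured probe. In bulk RNA, fewer cells of a type and less RNA per cell cannot be told apart.

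On the wild-type array 63.9% of probes were well above background, and 64.1% on the PAD4-deficient array. The check of the targeted gene went with the label: the brightest Padi4 probe gave 12879 in wild-type and 2670 in PAD4-deficient cells, although the sources used here do not say which part of the gene was deleted. The arrays also differed in sex-linked transcripts. The brightest Xist probe gave 16255 in PAD4-deficient cells and was not well above background in wild-type cells. The Y-linked gene Ddx3y had 3455 in wild-type and 1297 in PAD4-deficient cells, well above background on both arrays. The PAD4-deficient sample thus held both Xist and Y-linked RNA. Genotype and this difference between the animals cannot be told apart for any gene below. Kit (9339 and 9451) and Ly6a (2637 and 2312), which encode the c-Kit and Sca-1 antigens of the sort, were bright on both arrays.

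The array's names for TCF genes do not follow current usage. The 2 probes named Tcf3 were those of Tcf7l1. The E protein gene that is now called Tcf3 stood under Tcfe2a, and the probes named Tcf4 were those of the E protein gene Tcf4 and not of Tcf7l2. All 24 member probes mapped to the chromosome that RefSeq gives for their gene. An accession of the member was found for 14 of them, and for the other 10 no accession matched the member in the RefSeq table. The main accession of none belonged to another gene there, and further accessions of a probe were not checked for this.

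Start sites are shown for the genes that lay furthest apart, Lef1 and Jup, as the 250 bases before the earliest RefSeq start of each (build GRCm38.p6, gene orientation, 5′ to 3′). The Lef1 window is chr3:131110047-131110296 on the plus strand and the Jup window chr11:100397791-100398040 on the minus strand. All windows were searched on both strands for 4 spellings of the LEF and TCF core: CTTTGAA and also CTTTGAT and also CTTTGTA and finally CTTTGTT, none of which contains another. Lef1 has a further start inside the gene, and so has Tcf7l2, and these 2 windows (chr3:131156044-131156293 and chr19:55895071-55895320, both on the plus strand) held the matches. Capitals mark a match, read on the minus strand in Lef1.
Lef1, earliest start: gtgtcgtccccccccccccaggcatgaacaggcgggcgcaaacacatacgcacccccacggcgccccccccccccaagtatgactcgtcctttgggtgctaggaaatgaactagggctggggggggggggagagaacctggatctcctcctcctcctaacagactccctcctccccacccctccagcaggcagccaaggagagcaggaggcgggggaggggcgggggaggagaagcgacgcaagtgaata
Jup, earliest start: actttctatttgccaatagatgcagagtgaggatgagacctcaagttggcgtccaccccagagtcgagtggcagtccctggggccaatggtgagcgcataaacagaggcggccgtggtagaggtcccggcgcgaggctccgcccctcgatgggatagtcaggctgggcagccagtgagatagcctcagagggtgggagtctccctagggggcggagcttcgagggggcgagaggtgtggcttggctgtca
Lef1, internal start, 30 bases: caacctcagaaTACAAAGtaggattgcatt
Tcf7l2, internal start, 30 bases: caaacaaaatatcaggCTTTGTTcttttga

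The Lef1 match begins at position -147 and the Tcf7l2 match at position -14, counted from the start site. Of 17 member windows, 2 held a match (11.8%), against 14.8% of all 32851 promoter windows of that length in the RefSeq table. The windows of Tcf7, Tcf7l1, Ctnnb1, Jup, Bcl9, Tle1, Tle3 and Tle4 held none of these 4 spellings, which says only that these letters are not in these windows.

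The 4 factors did not share a direction. Lef1 and Tcf7 had higher signals on the PAD4-deficient array at each of their measured probes, and Tcf7l1 and Tcf7l2 had lower signals at each of theirs. Lef1 and Tcf7 were the only members at least 1.5-fold higher at the gene value, and Jup was the only member at least 1.5-fold lower. Of all 17020 measured genes, 2.88% passed that fold upwards and 1.87% downwards. By probe, 3 of the 22 measured passed it upwards (both Lef1 probes and 1 of Tcf7) and 2 downwards (Jup and 1 of Tcf7l1), against 2.49% and 2.08% of all measured probes.

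**Figure D1:**
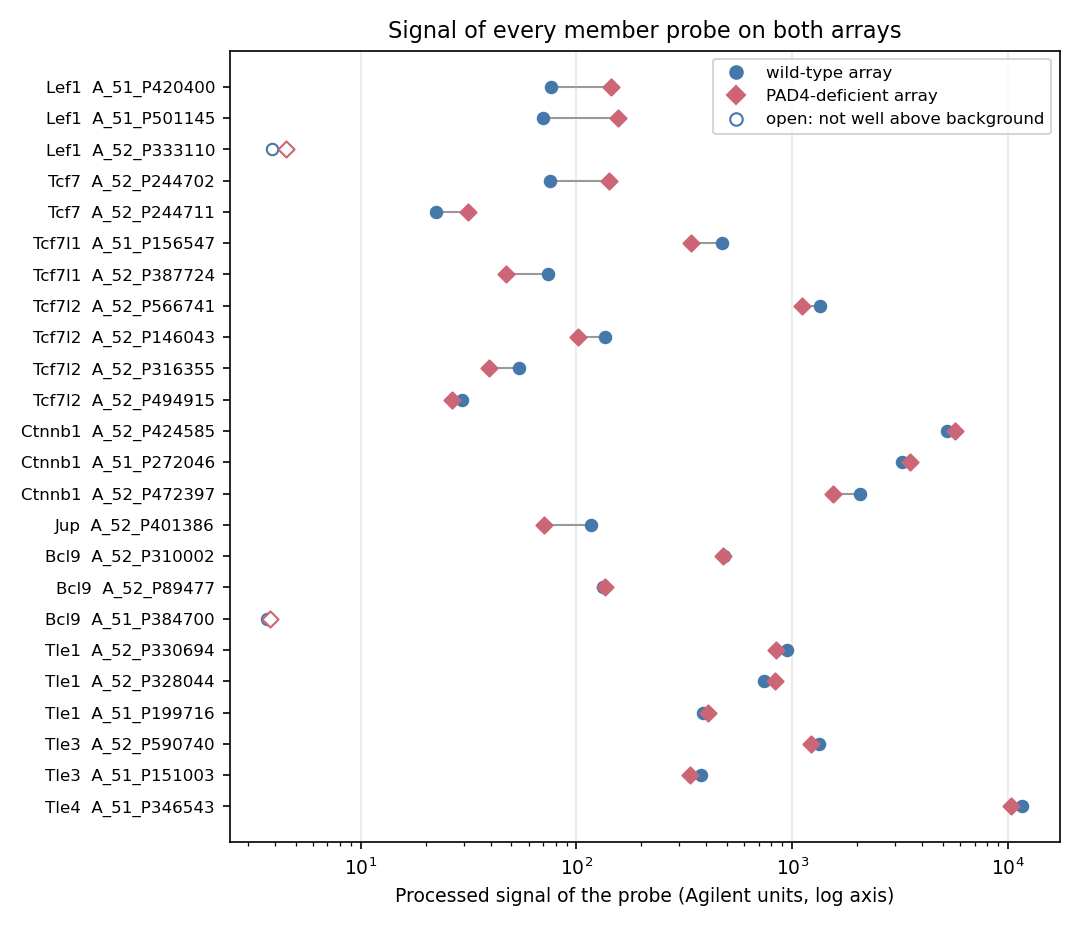
Processed signal of each member probe (log axis) on the wild-type array (circles) and the PAD4-deficient array (diamonds), with open symbols for values not well above background. The upper Lef1 and Tcf7 probes lie near 70 to 76 on the wild-type array and near 142 to 155 on the PAD4-deficient array, and 1 Lef1 and 1 Bcl9 probe stay near 4 on both.

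Lef1 encodes lymphoid enhancer binding factor 1. Its brightest measured probe (mm8 chromosome 3, 131194088 to 131212249) gave 76.0 in wild-type and 144.6 in PAD4-deficient cells, a difference of 0.98 with an error of 0.23. The genomic interval of that probe covers 18162 bases, so its sequence joins separate stretches of the gene and reads spliced RNA. The second measured probe, 1.0 kb further along the gene (131213273 to 131213332), had 70.1 and 155.1, a difference of 1.2 with an error of 0.22. The probes thus gave 1.97-fold and 2.29-fold higher signals. Of 5883 genes with 2 or more measured probes, 0.493% had all of them at least 1.5-fold higher, and Lef1 was among them.

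Another Lef1 probe, from a neonatal thymus cDNA (131106293 to 131106352), lay 87.7 kb before the others on mm8. It had 3.9 and 4.5 and was not well above background on either array. The Lef1 difference therefore rests on the other probes alone.

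Tcf7 encodes TCF-1. Its brighter probe (mm8 chromosome 11, 52096035 to 52096094) had 75.4 in wild-type and 141.9 in PAD4-deficient cells, a difference of 0.96 with an error of 0.22. Its dimmer probe, 0.7 kb away (52096752 to 52096811), had 22.3 and 31.3, a difference of 0.54 with an error of 0.35. Both were higher on the PAD4-deficient array, but only the brighter one passed 1.5-fold. The wild-type signal of the dimmer probe was close to 17.7, the dimmest value of any probe above background there. The differences of the 2 probes lay 0.42 apart, at the 90th percentile of this gap (0.42) over the 3975 genes with 2 measured probes, for which the median gap was 0.14.

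Low signals widen the spread of differences, so Lef1 and Tcf7 are best read beside genes of like brightness. Of 3178 genes with a mean signal between 50 and 200, 6.51% passed 1.5-fold upwards and 3.59% downwards. In that band the 5th and 95th percentiles of the difference were -0.50 and 0.73, against -0.35 and 0.30 for the 11496 genes above 200. Both Lef1 and Tcf7 lay beyond the 95th percentile of their band. Over all measured genes, ranked from the highest difference, Lef1 stood at 179 and Tcf7 at 191 of 17020.

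Tcf7l1 encodes a factor that mostly represses its targets. Its brighter probe (mm8 chromosome 6, 72556737 to 72556796) had 470.5 in wild-type and 341.0 in PAD4-deficient cells, a difference of -0.41 with an error of 0.20. Its dimmer probe (72555892 to 72555951) had 73.6 and 47.1, a difference of -0.59 with an error of 0.24. Both probes were lower on the PAD4-deficient array by more than their error, and the dimmer one was 1.51-fold lower.

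Tcf7l2 encodes the main partner of beta-catenin in intestinal epithelium. Its brightest probe (mm8 chromosome 19, 55986346 to 55986405) had 1346 in wild-type and 1113 in PAD4-deficient cells, a difference of -0.22 with an error of 0.20. The other 3 probes had 136.0 and 101.2, 53.9 and 39.5, and 29.5 and 26.5, with differences of -0.38, -0.40 and -0.10. All 4 were lower on the PAD4-deficient array, and the last, from a separate transcript record, was within its error of 0.35. None reached 1.5-fold. Of genes with 2 or more measured probes, 27% had all of them lower and 32.1% all of them higher, so a shared sign over a gene's probes is common on these arrays.

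**Figure D2:**
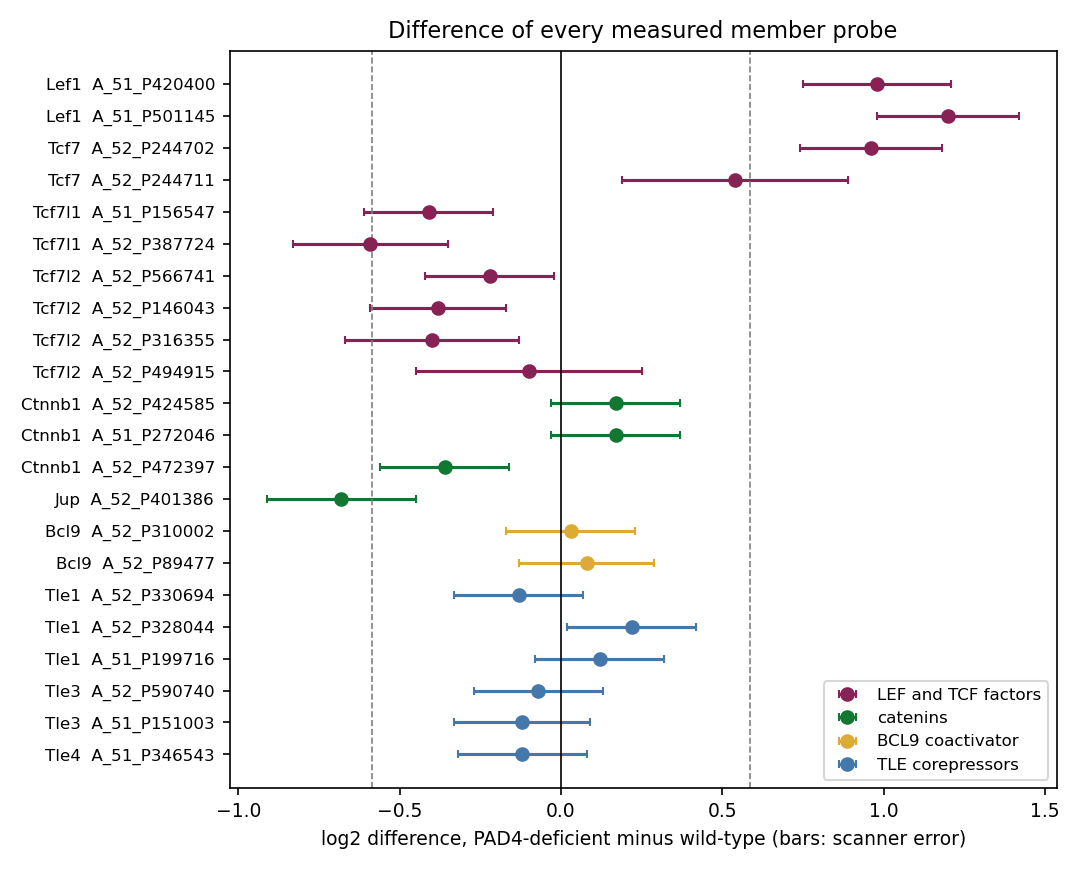
Log2 difference (PAD4-deficient minus wild-type) of each of the 22 measured member probes, with the scanner error as bars and dashed lines at 1.5-fold. The Lef1 and Tcf7 probes lie between 0.54 and 1.2, the Tcf7l1 and Tcf7l2 probes between -0.59 and -0.10, and the Bcl9 and TLE probes between -0.13 and 0.22.

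The transcript of beta-catenin, which acts both in cell junctions and as the coactivator of LEF and TCF proteins, was close to its wild-type level. The brightest Ctnnb1 probe (mm8 chromosome 9, 120808854 to 120808913) had 5229 in wild-type and 5696 in PAD4-deficient cells, a difference of 0.17 with an error of 0.20. A probe 0.4 kb before it was printed in 10 spots. On the wild-type array its spots had a lowest, median and highest signal of 3073, 3237 and 3422. On the PAD4-deficient array, where 2 of the 10 spots were flagged as outliers and left out, they had 3347, 3523 and 3592. These unscaled ranges overlapped. After scaling they did not, with log2 levels of 1.92 to 2.07 in wild-type and 2.09 to 2.19 in PAD4-deficient cells, and the probe gave the same difference of 0.17. Spots of 1 array share its RNA and are not replicates of a genotype.

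The remaining Ctnnb1 probe went the other way. It lies 3.4 kb before the 10-spot probe (120804855 to 120804914), was designed on a thymus cDNA, and had 2052 and 1544, a difference of -0.36 with an error of 0.20. The 3 Ctnnb1 differences spanned 0.53, against a median span of 0.25 and a 90th percentile of 0.59 over the 1374 genes with 3 measured probes. Whether this cDNA is a separate transcript form was not tested.

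Jup encodes plakoglobin, a close relative of beta-catenin that binds cadherins in desmosomes and other junctions and can also bind TCF proteins. Its only probe (mm8 chromosome 11, 100187471 to 100187530) had 117.0 in wild-type and 70.4 in PAD4-deficient cells, a difference of -0.68 with an error of 0.23, which is 1.6-fold lower. With normexp background correction and an offset of 50 the difference was -0.46 and no longer 1.5-fold. Ranked from the lowest difference, Jup stood at 199 of 17020 genes. It too falls in the band of mean signal between 50 and 200, where 3.59% of genes were at least 1.5-fold lower. Its difference lay below the 5th percentile of that band (-0.50).

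The cofactors showed small differences. Bcl9, which bridges beta-catenin to Pygopus, had 483.2 and 477.0 at its brightest probe (mm8 chromosome 3, 97300493 to 97300552), a difference of 0.03 with an error of 0.20. Its second probe had 133.3 and 136.0 (0.08, error 0.21), and another, 47.7 kb from the brightest, had 3.7 and 3.8 and was not well above background. Neither measured Bcl9 probe differed beyond its error.

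The TLE corepressors, which silence LEF and TCF targets in the absence of beta-catenin, were also near their wild-type level. Tle1 had 945.5 and 836.1 at its brightest probe (mm8 chromosome 4, 71644112 to 71644171), a difference of -0.13 with an error of 0.20. Its other probes, 39.4 kb away and overlapping each other, had 740.0 and 833.9 and 387.4 and 407.5, with differences of 0.22 and 0.12. The direction for Tle1 thus depends on the probe. With normexp, the second probe becomes the brightest and the gene value turns to 0.21 with the offset and 0.22 without it.

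Tle3 had 1328 and 1221 at its brightest probe (mm8 chromosome 9, 61215623 to 61215682), a difference of -0.07 with an error of 0.20, and -0.12 at its second probe. Tle4 had 11584 and 10276 at its only probe (mm8 chromosome 19, 14515200 to 14515259), a difference of -0.12 with an error of 0.20. These differences were within the scanner error.

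Counted over the set, 10 of 22 measured member probes had a difference above 0 and 12 below 0, with a median of -0.09, and 12 of the 22 exceeded their scanner error, against 30.8% of all measured probes. By gene, 4 of 10 were higher and 6 lower, with a median of -0.10. Over all 17020 measured genes 9363 were higher and 7657 lower, with a median of 0.02. The difference exceeded the scanner error for 5 of 10 members, the 4 LEF and TCF factors and Jup. Over all measured genes this share was 30.1%. None of the members was 2-fold different at the gene value, where 1.01% of all genes were higher and 0.476% lower.

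**Figure D3:**
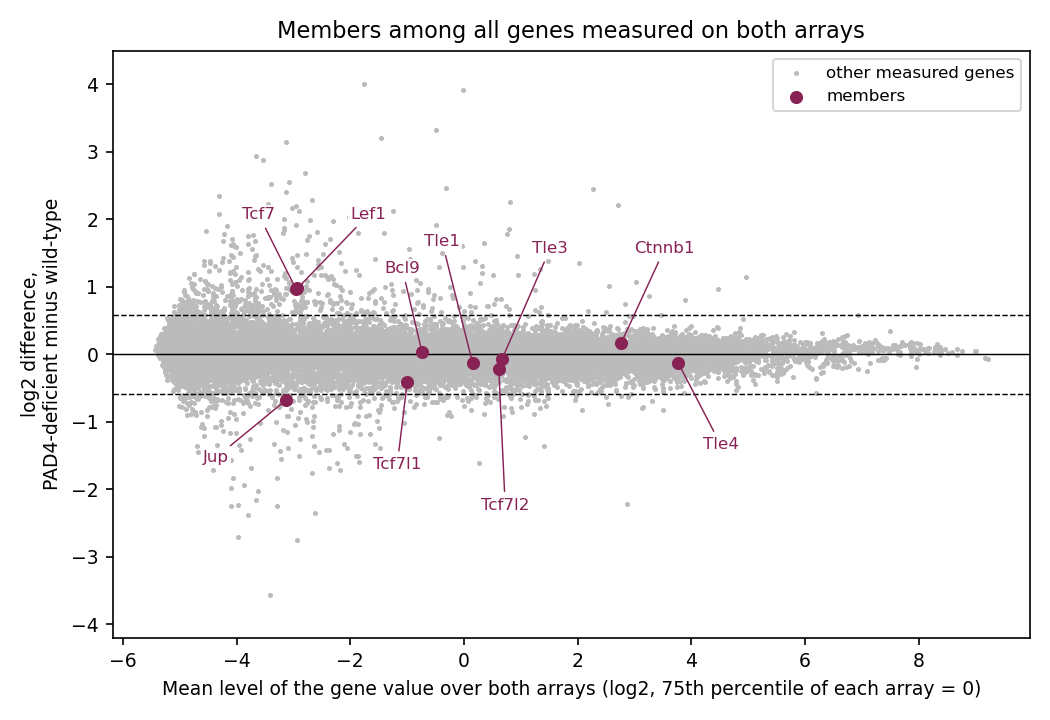
Log2 difference (PAD4-deficient minus wild-type) of each of 17020 genes against its mean level over both arrays (log2, with the 75th percentile of each array at 0), with members labelled and dashed lines at 1.5-fold. Lef1 and Tcf7 lie together above the upper line, Jup lies below the lower line, and the other 7 members lie between the lines.

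The other genes of the pathway were described by 5 lists that leave the members out. Of 22 measured nuclear cofactors, none was 1.5-fold different in either direction, and the median difference was -0.01. Pygo2, which binds the BCL9 arm of the complex, had 3327 and 3140 (-0.03), and Hdac1, a deacetylase recruited by TLE proteins, had 7258 and 7651 (0.13). Of 23 measured genes of the destruction complex and its regulators, none was 1.5-fold different, 15 were below 0 and the median was -0.12. Apc, its scaffold, had 699.4 and 682.5 (0.01). Gsk3b, the kinase that marks beta-catenin for degradation, had 194.5 and 148.3 (-0.34) with 0.09 at its second probe. Axin1, named after its value was seen as the lowest of the list, had 1396 and 960.2 (-0.49, error 0.20).

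Of 30 LEF and TCF target genes, 16 were measured. Among these, 4 passed 1.5-fold upwards and none downwards, beside 2.88% of all genes higher and 1.87% lower, and the median of the list was 0.03. Myc had 5748 and 10132 (0.87), but its 3 probes ranged from 0.24 to 0.99, so not all passed 1.5-fold. Trib2, a pseudokinase, had 234.5 and 386.9 (0.77, with 0.61 at its second probe), and Id2, an inhibitor of E proteins, 847.0 and 1344 (0.72, with 0.84 at its second probe). The remaining one, Znrf3, a Wnt feedback gene named after its value was seen, had 89.2 and 132.7 (0.62). Ccnd1, the cyclin D1 gene, had 1374 and 1420 (0.10). Of the 30 target genes 9 were well above background in neither sample, among them the feedback genes Axin2, Sp5, Nkd2, Notum and Dkk1. Measured in PAD4-deficient cells only were Rnf43, the feedback partner of Znrf3 (20.6 and 37.7, at least 1.89-fold higher), Tnfrsf19 (at least 1.54-fold) and Cdx1 (at least 1.17-fold). Measured in wild-type cells only were Wif1, a secreted Wnt inhibitor (28.7 and 5.6, at least 1.5-fold lower), and Sox9 (at least 1.46-fold). Each such bound divides the scaled bright value by the dimmest value of any probe above background on the dim array. Where the dim spot itself was higher, as for Rnf43, that spot was used. Probes above this dimmest value can still fail the call, so here and below these folds are not strict lower bounds. Lgr5 was dim and near 0 (46.0 and 42.5, a difference of -0.06 with an error of 0.27), and Nkd1 had 47.5 and 36.7 (-0.32, error 0.30). These genes were named after their values were seen.

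Of 17 catenin partners at junctions, 9 were measured and 6 were above background on neither array, Cdh1 among them. Ctnna1, the alpha-catenin that links cadherins to actin, had 8460 and 9254 (0.18, error 0.20). Ctnnd2, a delta-catenin, was the only measured member past 1.5-fold (27.0 and 43.9, a difference of 0.75 with an error of 0.32), and the list median was 0.15. Dsp, desmoplakin, which binds plakoglobin in desmosomes, was measured in PAD4-deficient cells only. It had 14.8 and 169.9, at least 9.93-fold higher, and was named after its value was seen.

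Of 20 lymphoid genes linked to LEF1 and TCF7 in T and B cell development, 16 were measured, with a median of 0.00. Among these, 2 passed 1.5-fold upwards and none downwards, beside 2.88% of all genes higher and 1.87% lower. Rag1, of the antigen receptor recombinase, had 103.4 and 220.1 (1.14, and at least 0.88 at each of its 3 probes). Il7r, the interleukin 7 receptor, had 270.8 and 409.3 (0.65) with 0.04 at its second probe. The T cell factors Gata3 (988.8 and 1189, a difference of 0.32) and Bcl11b (58.4 and 74.0, a difference of 0.39) were higher by less than 1.5-fold.

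Markers of cells that express Lef1 or Tcf7 strongly moved unevenly. All marker counts from here on stand beside 2.88% of all measured genes at least 1.5-fold higher and 1.87% lower. For genes with a mean signal between 50 and 200, where many markers lie, these shares were 6.51% and 3.59%. Of 12 measured T cell markers, 9 were below 0, 1 was at least 1.5-fold higher and 1 lower, and the median was -0.26. The summed signal of these 12 was 10936 in wild-type and 8396 in PAD4-deficient cells. Cd3e had 64.6 and 78.4 (0.33), Cd3g and Cd2 were above background on neither array, and Cd3d (13.4 and 22.0) and Cd8a (9.7 and 75.5) in PAD4-deficient cells only. Skap1 had 0.68.

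Of 11 measured NK and innate lymphoid markers, 5 were at least 1.5-fold higher and 1 lower, with a median of 0.38 and summed signals of 19206 and 18788. Most of that sum is Nkg7 (16948 and 16115, a difference of -0.02), so it says little of the other markers of this list. Il1rl1, the interleukin 33 receptor, which mast cells also carry, had 67.1 and 209.0 (1.69), Klrk1 21.4 and 52.0 (1.33) and Prf1 42.6 and 27.2 (-0.60). The wild-type signal of Klrk1 was close to 17.7, the dimmest value of any probe above background on that array. Ncr1, Eomes and Gzma were above background on neither array. Of 13 measured B cell markers, 7 were at least 1.5-fold higher and none lower, with a median of 0.62 and summed signals of 22048 and 29693. Pax5 had 72.5 and 164.2 (1.23) and Pou2af1 666.8 and 1488 (1.21). No measured B cell marker other than Cd72 (-0.38) was below 0.

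Other lineages differed as well. At least 1.5-fold higher were 7 of 12 erythroid markers (median 0.92, Ermap at 2.52 and Rhd at 1.99), 3 of 10 neutrophil markers (0.56, Elane at 1.92 and Ms4a3 at 1.79) and 6 of 11 monocyte and dendritic markers (0.59, Batf3 at 2.02 and F13a1 at 1.61), with none 1.5-fold lower. Of the 12 erythroid markers 2 were below 0, Hba-a1 (-0.22) and Alas2 (-0.47), while Car2 (0.00) and Slc4a1 (0.05) were near 0. The summed erythroid signals were 29547 in wild-type and 30143 in PAD4-deficient cells, most of it Car2 (22721 and 21958). These 4 erythroid genes were named after their values were seen. The stromal and endothelial list had 2 of 6 at least 1.5-fold lower (median -0.24, Cxcl12 at -1.51 and Bgn at -0.63). None of 3 epithelial markers measured in both samples was 1.5-fold different (median -0.31). Cldn4, a tight junction claudin, was measured in wild-type cells only (80.2 and 3.8, at least 4.19-fold lower in PAD4-deficient cells), and Krt19 and Cdh1 in neither sample. The name of Cldn4 was added after its value was seen. Of 12 LSK markers 6 were below 0 and 1 was at least 1.5-fold lower, Flt3 at -0.67, with a median of -0.04. The part of these cell types in the differences of Lef1, Tcf7 and Jup was not tested.

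**Figure D4:**
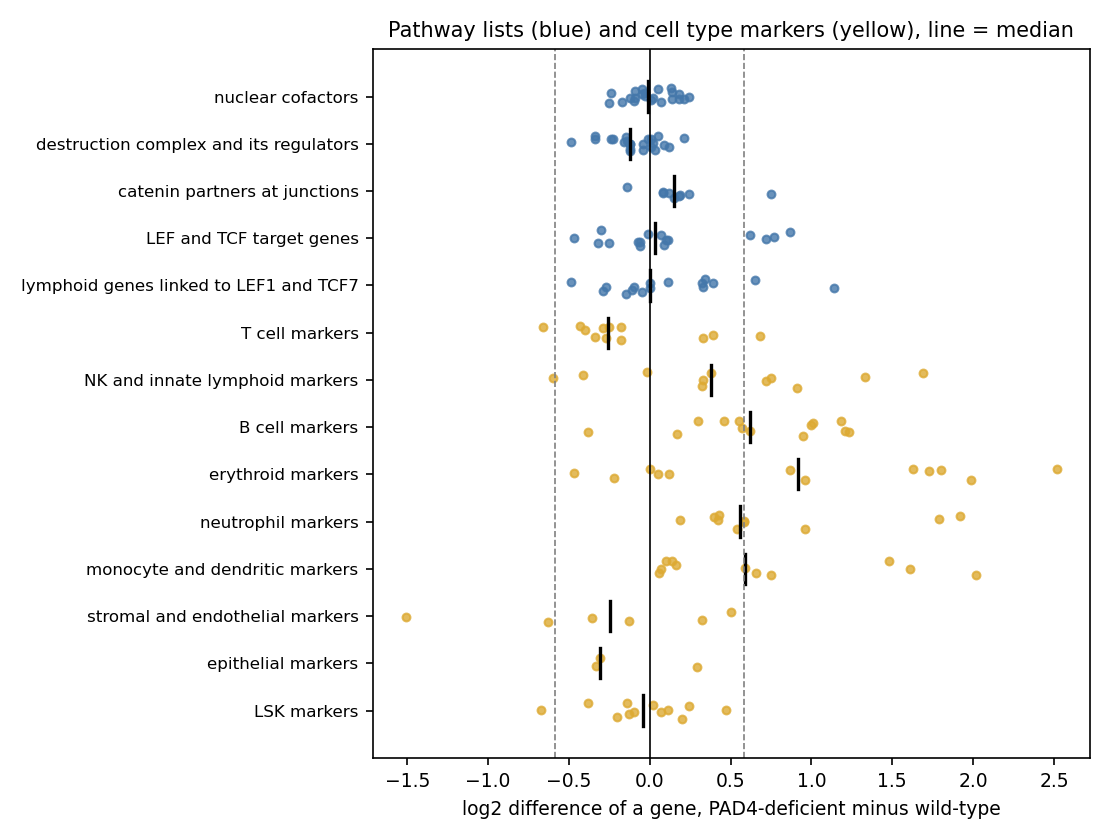
Log2 difference (PAD4-deficient minus wild-type) of each measured gene of the 5 pathway lists (blue) and 9 marker lists (yellow), with the list median as a black line and dashed lines at 1.5-fold. The nuclear cofactors and the destruction complex stay between the dashed lines with medians of -0.01 and -0.12, while the B cell and erythroid medians lie at 0.62 and 0.92.

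Other processing choices moved some members. Across 10 alternatives the gene value of Lef1 ranged from 0.76 to 1.09 and that of Tcf7 from 0.65 to 0.97, both above 1.5-fold in each. Not all of the 10 could move a member. The authors' own values are the same signals less a constant, and looser limits on signal over background kept each member's brightest probe. The brightest Lef1 probe is another one under normexp, and the value of 0.76 comes from it. The offset of 50 in normexp is a constant that pulls log2 ratios of dim signals toward 0. With it, the Lef1 probe used elsewhere went from 0.98 to 0.61 and the other measured one from 1.2 to 0.76. Ctnnb1 went from 0.17 to -0.0048 when its probes were averaged, and Tle1 from -0.13 to 0.073. Tcf7l1 ranged from -0.50 to -0.37 and Tcf7l2 from -0.28 to -0.20.

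**Figure D5:**
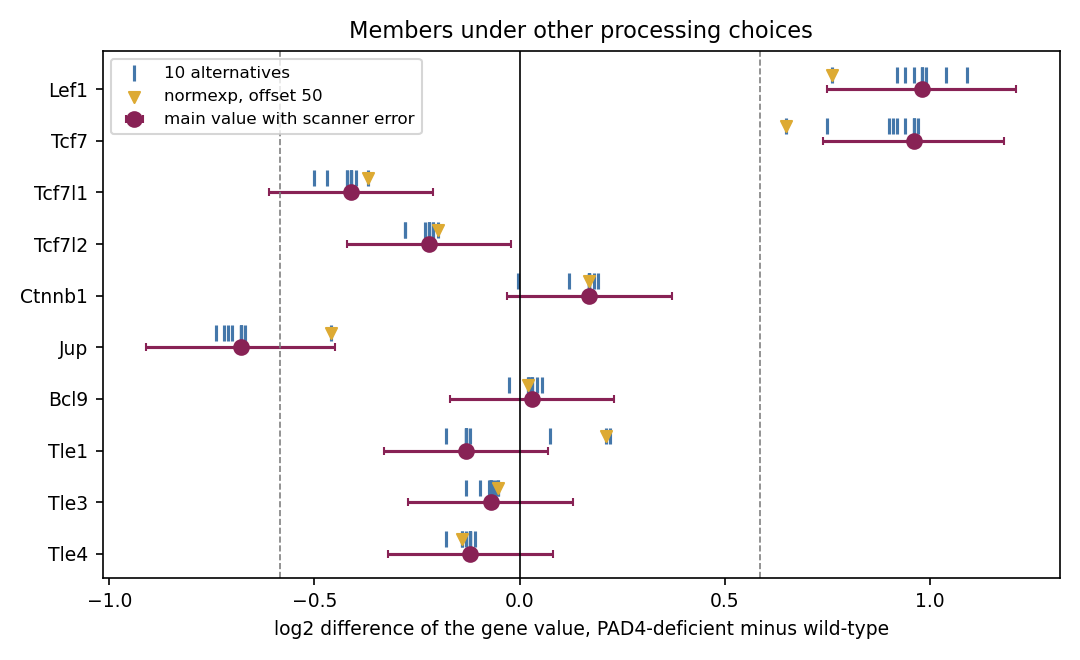
Log2 difference (PAD4-deficient minus wild-type) of each member's gene value, with its scanner error as bars, beside the values under 10 other processing choices (ticks; triangle for normexp with an offset of 50) and dashed lines at 1.5-fold. Lef1 (0.76 to 1.09) and Tcf7 (0.65 to 0.97) stay above the upper line, Jup crosses the lower line at -0.46, and Tle1 spans -0.18 to 0.22.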

How the data were processed

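Total RNA of 1 wild-type and 1 PAD4-deficient LSK sample was labelled with Cy3 and hybridised to 1-colour Agilent arrays of design 014868, read with Feature Extraction 9.5.3.1 on mm8 coordinates, per the file headers; the submitters' processing notes name version 9.5. The deposited spot intensity is the authors' processed signal, with spatial and multiplicative detrending on, per the file headers. The authors' deposited log2 table was checked too: each column equalled the log2 median processed signal of a probe minus a constant (9.67 and 9.62; column medians -3.59 and -3.53), so scale, centring and direction were settled.

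Control spots and outlier spots were left out, log2 signals were averaged per probe, and each array's 75th percentile (814 and 786) was subtracted. A probe was above background when a share of at least 0.5 of its spots was. Spot errors were combined over both arrays, without a reduction for repeated spots. Probes were named through RefSeq of GRCm38.p6: 24492 by accession, 6234 by symbol, 2386 by synonym, and 8058 kept the file's name. Members and lists were chosen with earlier results of these data known. Named were all members, Padi4, the look-alike TCF names, a few fixed pathway genes and, per list, up to 3 (pathway) or 2 (marker) genes per direction with the largest difference of at least 1.5-fold; exceptions are marked, and 2 genes the rule names are not reported here. Promoter windows are RefSeq sequences. The number of arrays limits the precision. The steps were tested on simulated 3-fold differences. All 100 genes set in each direction were recovered, and 1.6% of unchanged genes were called. No member differed by 3-fold, so this recovery does not bear on differences near 1.5-fold. Python 3.11.15, numpy 2.4.6, pandas 2.3.3, statsmodels 0.14.6, and limma 3.58.1 in R 4.3.3 (normexp) were used.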

Additional observations from a re-analysis of the deposited data

How the results depend on the processing

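No paired analysis was possible because there was only 1 array per genotype, and no replicate could be left out. Tried were normexp (offset 50 or none), quantile normalization, scaling to the median or to detected probes, loess (window 0.3), the authors' own values, averaging a gene's probes, and looser signal filters. Median scaling moved the median of all genes from 0.02 to -0.03. With normexp and the offset, Tcf7 had 0.65, Jup -0.46 and Tle1 0.21, 0 members were 1.5-fold lower and 4 pathway genes 1.5-fold higher (7 in the main setting). Tle1 had 0.22 with no offset. The Tle1 values come from another of its probes, which becomes the brightest. Pathway genes 1.5-fold higher and lower numbered 12 and 2 when 1 array above background sufficed, and 12 and 3 with no filter, which adds dim probes. At 2-fold, 0 members were higher, 0 lower and 1 pathway gene higher. At 1.2-fold, 2 members were lower, and 11 pathway genes were higher and 9 lower. Lef1, Tcf7, Tcf7l1, Tcf7l2, Jup, Tle3 and Tle4 kept their sign under all 10 alternatives. For the authors' own values and the looser filters this was nearly fixed in advance, since both kept the same signals of the same probes. Ctnnb1 had -0.0048 with the mean over its probes, and Bcl9 had -0.03 at its lowest. Signal over background limits the dim Lef1, Tcf7 and Jup probes.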
